A study of Mus musculus with 37 samples.

Results

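The bone marrow cells of tumor-bearing double knockout mice, abbreviated DKO BMT, were compared with bone marrow (BM) cells of control mice by RNA-seq. Members were chosen by their labels, as the 3 DKO BMT libraries and the 3 control libraries of the second set (set 2), 6 of 37 libraries in all. In DKO mice Osx1-Cre, whose promoter is active in progenitors committed to the bone lineage, deletes Wwox and Trp53 and turns on a Rosa26-LSL-tdTomato reporter. BMT denotes marrow taken when a tumor was detected, and the control mice, labelled Control-WT, are described as WT in the methods and as Cre-negative in the series description. The cells of all groups were grown in MEM-Alpha before RNA extraction, and for set 1 the methods state 3 passages, after which tdTomato-positive cells prevailed. Ages are not given for these 6 libraries. The 3 columns of control BM could be matched to their group but not to a particular sample, and are numbered as in their column names. For set 2 the sources used here do not say whether each library was made from its own mouse, and the p-values therefore cover only the library-to-library spread, which may be technical. As context served BM of tumor-bearing mice with deletion of Trp53 alone (SKO BMT), BM of young tumor-free DKO mice (DKO yBM), both of set 2, and the DKO BMT and control BM of set 1 (3 and 4 libraries, from separate columns).

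WWOX is a tumor suppressor with WW domains, and p53, the product of Trp53, is the transcription factor that raises Cdkn1a and other genes of cell cycle arrest and apoptosis after DNA damage. Myc is a transcription factor that binds E-box sequences with its partner Max and drives ribosome production and growth. The cell of origin of osteosarcoma is debated, with mesenchymal stem cells and cells of the osteoblast lineage both proposed. The osteoblast lineage is marked by Runx2 and Sp7 and lays down type I collagen. Marrow cultures also hold cells of the blood lineage that attach to plastic, macrophages above all, which carry Ptprc, Csf1r and Lyz2.

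Values are TPM, the length-scaled share of a gene's transcripts in a library, which carry no sequencing depth, so counting error is unknown. The 14458 genes that reached 1 TPM in 3 or more of the 21 libraries of set 2 were tested with limma on log2(TPM + 1), and a gene was called at a Benjamini-Hochberg adjusted p under 0.05. Genes at 1 TPM or more numbered 12151 to 13051 in the control libraries and 11372 to 12689 in DKO BMT. Transcripts of the mitochondrial genome took 32.5%, 13.6% and 9.07% of the TPM in control BM 1, 2 and 3 and 11.1%, 13.1% and 12.8% in DKO BMT 1, 2 and 3. Control BM 1 stood apart from the other controls in that share. The Y-linked gene Ddx3y was at 20.7 to 36.3 TPM in the controls, at 12.3 TPM in DKO BMT 1 and at 0 in DKO BMT 2 and 3, and Xist, the transcript of the inactive X chromosome, was at 27.0 and 13.1 TPM in the latter and at most 0.139 TPM in the other 4 libraries. Sex-linked transcripts thus moved in part with the groups, 4 of 5 being called lower, and the part of sex in the results was not tested.

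The largest difference between the groups was in the leukocyte markers. Lyz2, which encodes the lysozyme of macrophages, was at 17780, 14990 and 18930 TPM in control BM 1, 2 and 3 and at 0.747, 825 and 0.189 TPM in DKO BMT 1, 2 and 3. Ptprc, which encodes CD45, was at 41.8, 35.4 and 46.7 TPM in the controls and at 0, 3.57 and 0 TPM in DKO BMT. Csf1r, the receptor for the macrophage growth factor CSF1, was at 544, 582 and 599 TPM against 1.26, 14.4 and 0.191 TPM. In each case DKO BMT 2 held some of the transcript and the other DKO BMT libraries held nearly none. All 22 of the 22 macrophage and other leukocyte markers fell, with a median log2 fold change of -7.13 (14458 genes: 0.09), against 7.79% of all genes that were called lower. The mean log2 level of the 22 markers was 8.43 to 8.70 in the controls, 0.36, 4.34 and 0.35 in DKO BMT 1, 2 and 3, and 0.28 to 0.86 in 14 of the other 15 libraries of set 2, SKO BMT 2 being at 5.15. In DKO BMT 1 and 3, 6 and 10 of the 22 markers were at 0, and none was at 0 in DKO BMT 2. Of 10 neutrophil genes 5 were tested. S100a8 and Mmp8 were called lower and 3 were not called, among them Mpo (log2 fold change 0.62). Of the 4 also tested in set 1 none was called (median 0.12). Of 10 lymphocyte genes only Ighm, which encodes the IgM heavy chain, was tested (1 gene), and it was called lower. Mmp8 and Ighm passed the filter only through the 3 control libraries, so they could be called lower but not higher. No erythroid gene of 8 and only 1 endothelial gene of 10 reached the level needed for testing, and Pecam1, the endothelial gene tested, was at 78.3 TPM in control BM 1 and between 3.16 and 7.04 TPM in the other 5 libraries. In libraries of whole cultures, fewer cells of a type cannot be told apart from less RNA per cell.

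**Figure D1:**
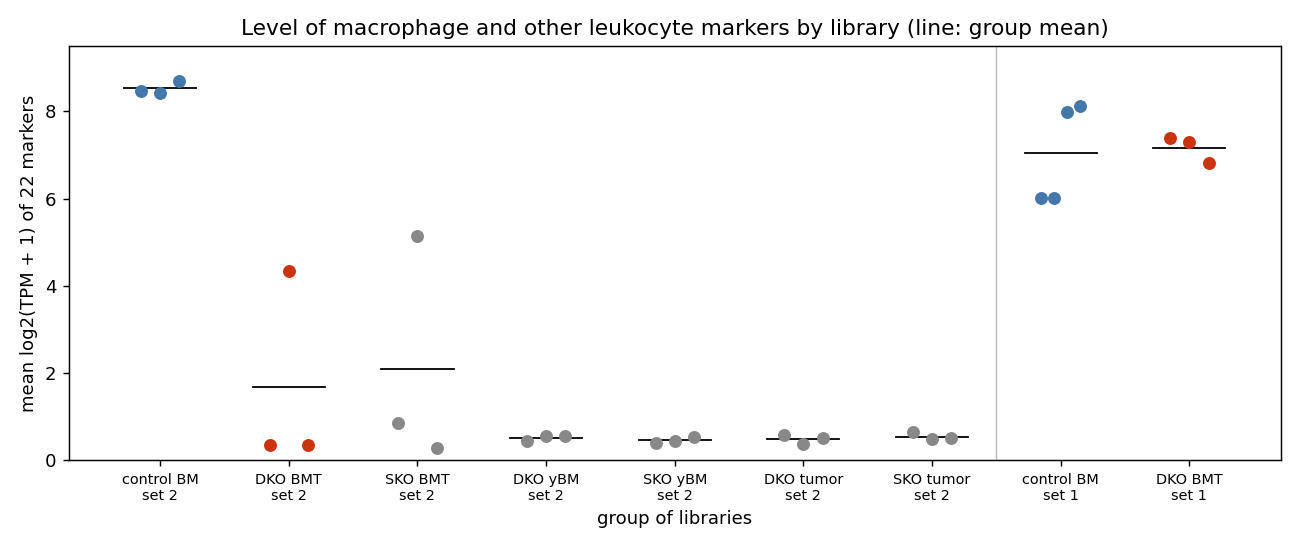
Mean log2(TPM + 1) of 22 macrophage and other leukocyte markers (vertical axis) for each library (points) by group (horizontal axis), with control BM in blue, DKO BMT in red and the other groups in grey; the line is the group mean. The 3 control libraries of set 2 lie at 8.43 to 8.70, DKO BMT 1 and 3 lie at 0.36 and 0.35, DKO BMT 2 lies at 4.34, and both groups of set 1 lie between 6.02 and 8.13.

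In set 1, by contrast, the same 22 markers averaged 6.02 to 8.13 in the 4 control libraries and 6.82 to 7.38 in the 3 DKO BMT libraries, none of the 22 was called, and their median log2 fold change was 0.11. The control libraries of set 2 were thus rich in leukocyte RNA and DKO BMT 1 and 3 poor in it, while the groups of set 1 overlapped. The gene groups below moved along with this difference in set 2. Its part in them was not tested beyond the covariate fits given. Values of set 1, where leukocyte levels overlapped, are given for many of the gene lists and for some of the genes described at length.

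Few markers of the bone lineage passed the test. Runx2, the transcription factor that sets osteoblast fate, was at 6.32, 10.3 and 11.5 TPM in the controls and at 51.7, 24.1 and 13.8 TPM in DKO BMT, so that the groups did not overlap, but it was not called (log2 fold change 1.41 ± 0.57 SE, limma adjusted p = 0.114). Sp7, which encodes Osterix, was at 0.882, 10.3 and 10.4 TPM in the controls and at 23.4, 6.36 and 0.0128 TPM in DKO BMT. Col1a1, the main collagen of bone, was at 493, 775 and 657 TPM against 4378, 4555 and 407 TPM. DKO BMT 1 and 2 were above every control in Col1a1 and DKO BMT 3 was below them, and Prrx1, a marker of mesenchymal cells, was at 156, 118 and 16.5 TPM in the same libraries. Of 20 mineralized bone matrix genes tested none was called, and of 24 mesenchymal stromal genes only Il7, a cytokine that supports lymphoid cells, was called (lower). Of 17 osteoblast transcription factors only Atf4 was called (higher). Without being called, the collagen chaperone gene Serpinh1 was higher in all DKO BMT libraries (708 to 1478 against 198 to 574 TPM) and Ly6a, which encodes Sca-1, was lower in all (156 to 279 against 499 to 1924 TPM). In set 1, 1 of 19 matrix genes was called higher and 5 of 24 stromal genes were called lower. DKO BMT 3 was the lowest library in Sp7, Col1a1 and Prrx1.

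The transcripts of both targeted genes were lower in all DKO BMT libraries. Trp53 was at 35.9, 65.9 and 74.9 TPM in control BM 1, 2 and 3 and at 1.97, 14.03 and 1.98 TPM in DKO BMT 1, 2 and 3. All DKO BMT libraries lay below all controls, DKO BMT 2 being the highest of them (log2 fold change -3.49 ± 0.49 SE, limma adjusted p = 5.88e-05). With the leukocyte level as a covariate within set 2, the Trp53 value was -1.48 and was not called (limma adjusted p = 0.503). That covariate, an alternative added after seeing the data, nearly coincides with the groups. With it only 216 of all 14458 genes were called. Wwox was at 4.05, 2.97 and 3.74 TPM in the controls and at 0.0164, 0.300 and 0.242 TPM in DKO BMT, again without overlap. It missed the threshold in the fit of all 21 libraries of set 2 (-1.95 ± 0.66 SE, limma adjusted p = 0.0611). Cdkn1a, which encodes the p21 inhibitor of cyclin-dependent kinases and is a chief target of p53, was at 284, 586 and 560 TPM in the controls and at 4.49, 65.2 and 3.49 TPM in DKO BMT (-5.27 ± 1.00 SE, adjusted p = 0.00127), a call that was lost with the leukocyte level as a covariate within set 2 (0.76, adjusted p = 0.805). In set 1 it was at 149 to 271 TPM in the controls and at 271, 67.9 and 48.1 TPM in DKO BMT (adjusted p = 0.553). Trp53 was at 9.18, 28.4 and 32.3 TPM in DKO BMT there, against 40.1 to 53.4 TPM in the controls, and Wwox was at 4.74 TPM in the library labelled DKO BMT 1 of set 1, which lies above the 4 controls of set 1. The difference of the Trp53 effect between the sets was not called (adjusted p = 0.0613).

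Of 37 p53 targets tested, 13 were called lower and none higher, against 7.79% of all genes called lower, with a median log2 fold change of -1.13. Ccng1, which encodes cyclin G1, was at 173, 386 and 362 TPM in the controls and at 23.4, 78.0 and 17.3 TPM in DKO BMT (-3.15 ± 0.45 SE, limma adjusted p = 6.47e-05). Mdm2, the ubiquitin ligase that degrades p53, was at 68.0, 99.5 and 86.6 TPM against 17.0, 27.2 and 27.7 TPM (-1.80 ± 0.33 SE, adjusted p = 0.0011). The death receptor gene Fas (-2.64) and the apoptosis effector Bax (-1.13) were also called lower, as were Trp53inp1 (-2.80), Sesn1 (-2.43), Rprm (-1.82), Dcxr (-3.22) and Btg2 (-2.15). Other members of the list did not pass, among them Fdxr at 1.92, 3.89 and 6.60 TPM in the controls and 12.1, 10.3 and 6.34 TPM in DKO BMT. In set 1, 8 of 35 members were called lower and none higher (median -0.78), of which Ccng1 (-2.56), Trp53inp1 (-2.39), Eda2r (-2.87), Fas (-1.99) and Btg2 (-2.87) were called in both sets. With the leukocyte level of each library as a covariate, none of the 37 was called in set 2 (median -0.56), and 2 were called lower when both sets entered that fit (median -0.77). Over all genes these fits called 155 of 14458 and 50 of 15654 lower.

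**Figure D2:**
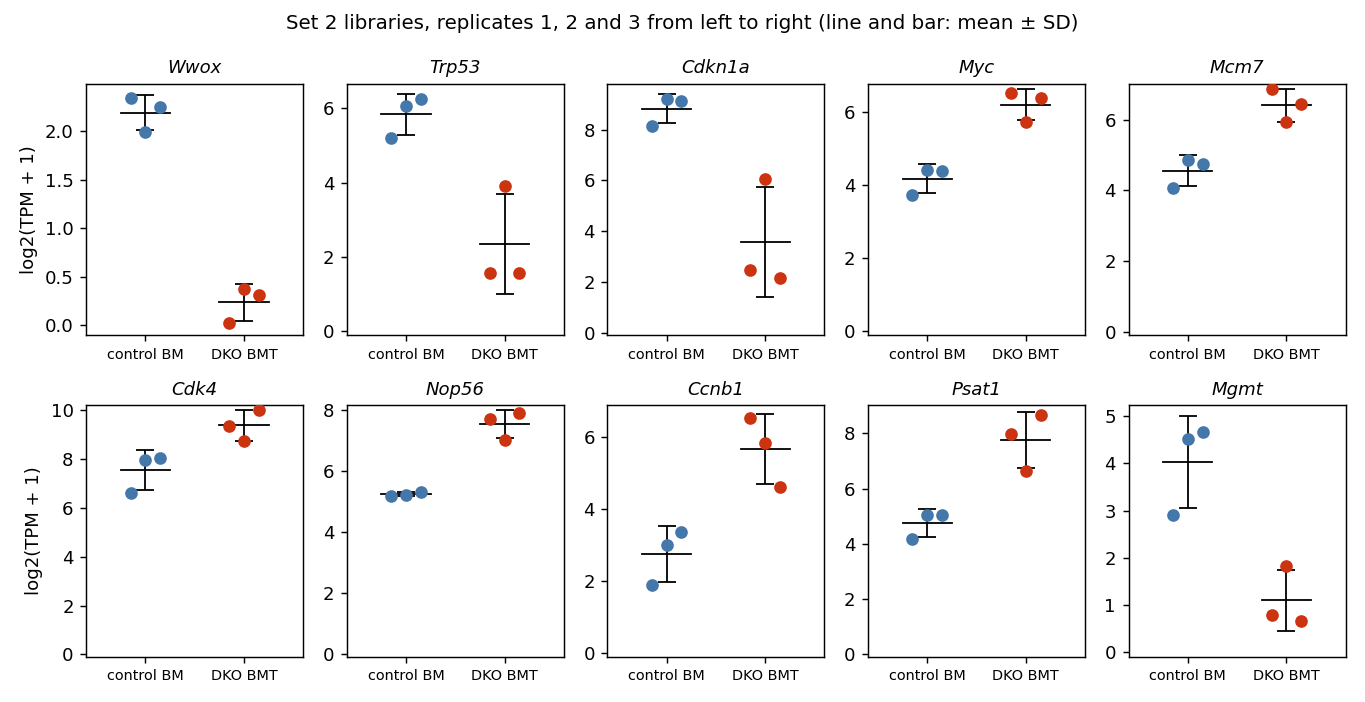
Levels of 10 genes on the log2(TPM + 1) scale (vertical axis, separate for each gene) in the 3 control BM (blue) and 3 DKO BMT (red) libraries of set 2, replicates from left to right, with the mean and SD of the logged values. In all 10 panels the groups do not overlap, and DKO BMT 2 lies nearest to the controls in each panel except that of Ccnb1, where DKO BMT 3 does.

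Across all 14458 genes, 1737 (12%) were called, of which 610 (4.22%) were higher and 1127 (7.79%) lower in DKO BMT. The 2 groups of 3 libraries did not overlap for 2295 genes with DKO BMT above (15.9%) and 1948 genes with DKO BMT below (13.5%). Under quantile normalization 3130 genes were called, 53.5% of them higher against 35.1% in the analysis above. The number of higher calls fell to 138 without control BM 1, to 302 without control BM 2 and to 243 without DKO BMT 1, while lower calls stood at 869, 636 and 907, and at 669 without control BM 3. Without control BM 3, DKO BMT 2 and DKO BMT 3 the higher calls numbered 505, 648 and 501. Counts of list members in fits without a library, given below, are to be read beside these totals. Unnamed gene models and pseudogenes made up 11% of the higher calls, 8.25% of the lower calls and 13.2% of all genes tested.

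**Figure D3:**
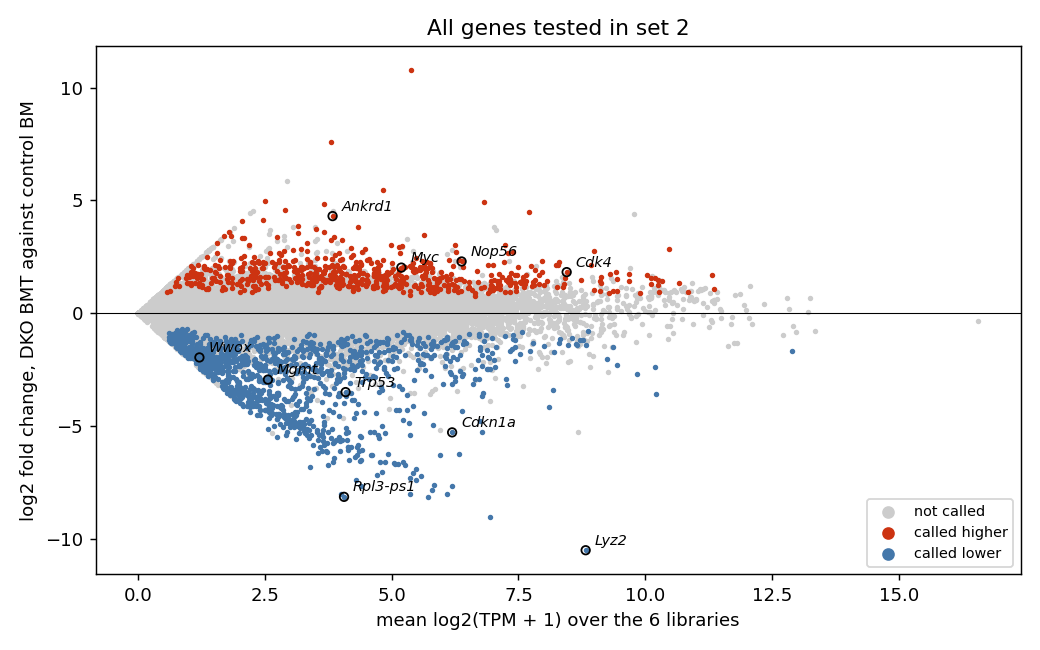
Log2 fold change of DKO BMT against control BM (vertical axis) against the mean log2(TPM + 1) of the 6 libraries (horizontal axis) for 14458 genes of set 2, with 610 genes called higher in red, 1127 called lower in blue and the rest in grey. The falls reach -10.5 for Lyz2, whereas Nop56, Myc and Cdk4 lie at 2.30, 2.03 and 1.83.

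Of the 8 named genes of largest rise, Ankrd1, which encodes a cardiac ankyrin repeat protein and is a target of the Hippo effector YAP, was at 2.30, 2.62 and 1.78 TPM in the controls and at 18, 113 and 118 TPM in DKO BMT (4.31 ± 1.18 SE, limma adjusted p = 0.0222). The call of Ankrd1 held in 1 of 6 fits that left out a library, that without DKO BMT 1 (highest adjusted p = 0.0826). Ptn, which encodes the secreted growth factor pleiotrophin, was at 2.77, 0.572 and 1.13 TPM against 116, 79.3 and 3.24 TPM, with DKO BMT 3 barely above control BM 1, and its call held only without DKO BMT 3 (highest adjusted p = 0.175). Capn6, which encodes a calpain without protease activity, was at 0.189, 0.294 and 0.474 TPM against 84.1, 9.42 and 13.1 TPM (4.14 ± 0.94 SE, adjusted p = 0.00614). Aldh1l2, the mitochondrial formyltetrahydrofolate dehydrogenase, was at 1.61, 3.32 and 3.31 TPM against 29.7, 16.9 and 160 TPM (3.61 ± 0.82 SE, adjusted p = 0.00623). Aldh1l2 was called in set 1 as well (2.81 ± 0.60 SE, adjusted p = 0.0332). Apol9b, Ccdc120 and the enolase gene Eno3 completed the group with log2 fold changes of 3.54, 3.39 and 3.37. Eno3 was at 8.08 TPM in DKO BMT 2, barely above the 7.37 TPM of control BM 2. The calls of Ccdc120 and Eno3 each held in 3 of 6 fits that left out a library, and that of Apol9b in 5. In set 1 Ankrd1 ranged from 0.841 to 59.1 TPM in the controls and from 0.688 to 3.84 TPM in DKO BMT, and the difference of the effect between the sets was itself called (5.99 ± 1.65 SE, adjusted p = 0.0338).

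The largest falls were Lyz2, Apoe, Laptm5, Rpl3-ps1, Fcrls, Tyrobp, Wfdc17 and C1qa. Apart from the pseudogene Rpl3-ps1, these are genes known from macrophages, among them Apoe (apolipoprotein E), C1qa (a subunit of complement C1q) and Tyrobp (the adaptor DAP12). Apoe was at 4841, 2912 and 1539 TPM in the controls and at 0.772, 60.9 and 0.428 TPM in DKO BMT. Fcrls was at 293, 250 and 237 TPM in the controls and listed at 0 in all 3 DKO BMT libraries, DKO BMT 2 included, although that library held other leukocyte transcripts. Its level in the 3 DKO BMT libraries of set 1 was 66.4, 12.9 and 10.1 TPM.

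A number of pseudogenes and gene models set the control libraries apart from all other libraries of set 2, not from DKO BMT alone. Rpl3-ps1 was at 263, 279 and 294 TPM in the controls, at 0 in DKO BMT and at most 0.196 TPM in the remaining 15 libraries. Tma7-ps, the top named rise, was at 0, 192 and 460 TPM in the controls and at 823 to 1119 TPM in DKO BMT, and the model Gm3375 was listed at 0 in the controls and at 155 to 270 TPM in DKO BMT. In set 1 Tma7-ps was at 0 to 13.2 TPM in the controls and 0 to 11.1 TPM in DKO BMT. Reads of near-identical copies can be split between them, so these values are uncertain.

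Myc and a part of its targets were called higher. Myc was at 12.2, 20.4 and 20.1 TPM in control BM 1, 2 and 3 and at 90.7, 51.8 and 82.2 TPM in DKO BMT 1, 2 and 3. Every DKO BMT library stood above every control (2.03 ± 0.62 SE, limma adjusted p = 0.0416). The call did not hold when any of 5 of the 6 libraries was left out in turn (highest adjusted p = 0.151), while the log2 fold change stayed between 1.80 and 2.27. In set 1 Myc was at 36.3, 11.3, 37.7 and 16.6 TPM in the controls and at 59.0, 13.6 and 33.7 TPM in DKO BMT, which overlap (0.40, adjusted p = 0.677), and the difference between the sets was not called (adjusted p = 0.385). Of the 11 tested members of the Myc network, Myc was the only one called. Its partner Max was at 126, 112 and 134 TPM in the controls and at 108, 77.7 and 54.5 TPM in DKO BMT (adjusted p = 0.157).

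Of 58 tested genes of the Myc targets V2 list, which are mostly nucleolar and ribosome assembly factors, 23 were called higher and none lower, against 4.22% of all genes called higher. Their median log2 fold change was 1.26, and in 44 of the 58 all DKO BMT libraries lay above all controls. Nop56, a core protein of the box C/D particles that methylate ribosomal RNA, was at 35.1, 36.1 and 38.5 TPM in the controls and at 207, 127 and 236 TPM in DKO BMT (2.30 ± 0.37 SE, limma adjusted p = 0.000259). Mrto4, which places the stalk of the large ribosomal subunit, was at 21.7, 32.5 and 32.2 TPM against 98.4, 85.0 and 137 TPM (1.85 ± 0.33 SE, adjusted p = 0.000623). Rrp9, a component of the U3 particle, was at 23.5, 20.6 and 19.6 TPM against 75.2, 54.1 and 61.1 TPM (1.53 ± 0.44 SE, adjusted p = 0.031), a call that held only without DKO BMT 2 among the 6 leave-outs. The mitochondrial chaperonins Hspd1 (1.71) and Hspe1 (1.36), the nucleolar methyltransferase Nop2 (1.83), prohibitin Phb (1.11) and spermidine synthase Srm (2.38) also rose. In set 1, 9 of 58 were called higher and none lower (median 0.90, 0.958% of all genes called higher there), Nop56, Mrto4 and Rrp9 among them. Leaving out single libraries gave 5 calls without control BM 1, 10 without DKO BMT 1, 11 without DKO BMT 3, 12 without control BM 2 and 22 without DKO BMT 2. In the same order, these fits gave 138, 243, 501, 302 and 648 higher calls over all genes. With the leukocyte level as a covariate none was called, and the medians were 1.41 in set 2 and 1.26 with both sets in the fit. Over all genes these fits called 61 of 14458 and 15 of 15654 higher. Within set 2 the covariate nearly coincides with the groups, so the median there does not separate the part of the leukocyte level.

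Cdk4, the cyclin D-dependent kinase that opens the G1 to S transition, belongs to the same list. It was at 96.5, 247 and 263 TPM in the controls and at 647, 425 and 1033 TPM in DKO BMT (1.83 ± 0.44 SE, limma adjusted p = 0.00953). Cdk4 missed the threshold without control BM 1 (adjusted p = 0.0672) and without DKO BMT 3, and in set 1 it was not called (0.45, adjusted p = 0.355). The promoters of the Myc targets V2 genes were searched for the E-box CACGTG, which reads the same on both strands, in the 250 bases before to 50 after each start (RefSeq, GRCm38.p6, matched by symbol). It was present in 15 of the 53 genes that had a promoter entry (28.3%), against 8.09% of 27025 genes in all. The following windows of 30 bases, with the E-box in capitals, show where this letter string lies in 4 genes that rose and in Imp4, a processing factor of ribosomal RNA that was not called. Of the 15 genes with an E-box 7 were called, a share near that of the whole list, where 23 of 58 tested genes were called. The plus strand is read for Cdk4, Nop2, Phb and Imp4 and the minus strand for Hspd1.
Cdk4, chr10:127063351-127063380: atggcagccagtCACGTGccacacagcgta
Cdk4, chr10:127063405-127063434: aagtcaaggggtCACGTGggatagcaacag
Nop2, chr6:125131811-125131840: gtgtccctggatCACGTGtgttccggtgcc
Phb, chr11:95666713-95666742: ttgaggaataggCACGTGcatatattacca
Hspd1, chr1:55088306-55088335: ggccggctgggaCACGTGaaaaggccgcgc
Imp4, chr1:34439696-34439725: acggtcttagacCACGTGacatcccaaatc
Cdk4 held 2 further E-boxes nearer to its start. A match describes the letters and not a bound site.

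DNA replication genes rose in part. Mcm7, a subunit of the MCM2-7 helicase that licenses replication origins, was at 15.6, 28.2 and 25.6 TPM in the controls and at 115, 59.8 and 86.6 TPM in DKO BMT (1.86 ± 0.48 SE, limma adjusted p = 0.0162), and missed the threshold without control BM 1 (adjusted p = 0.0842) and without DKO BMT 1. It was called in set 1 at nearly the same size (1.78 ± 0.35 SE, adjusted p = 0.0244), with 17.2 to 35.6 TPM in the controls and 71.3 to 101 TPM in DKO BMT. The other MCM subunits did not pass, as shown by Mcm2 at 60.5, 9.72 and 10.8 TPM in the controls and 50.7, 36.9 and 48.0 TPM in DKO BMT, where control BM 1 stood above all 3 DKO BMT libraries. Recql4 (2.15), Dbf4 (1.58), Orc6 (1.43) and Mcm10 (1.82), all factors of origin firing, were called with Mcm7, which made 5 of 27 licensing and initiation genes with none lower (median 1.21). Of 32 genes of the replication fork and of deoxynucleotide supply, 10 were called higher and none lower (median 1.09). Tyms, which makes thymidylate, was at 4.78, 15.5 and 19.6 TPM in the controls and at 94.0, 76.0 and 35.8 TPM in DKO BMT (2.37 ± 0.48 SE, adjusted p = 0.0024), whereas Pcna, the sliding clamp, was at 85.8 to 107 TPM against 62.3 to 123 TPM. In set 1, 6 of 27 and 4 of 32 members of these lists were called higher and none lower. Without control BM 1 the counts of set 2 were 1 and 3, and without DKO BMT 1 they were also 1 and 3, while 4 fork genes were called without control BM 2 and 8 licensing genes without DKO BMT 3. With the leukocyte level as a covariate none of either list, of the mitotic list or of the biosynthesis lists of ribosomal proteins and amino acid stress was called. Over all genes, 61 of 14458 were called higher with that covariate within set 2. The promoter motif of E2F factors (TTTCGCGC or TTTGGCGC, both strands) was found for 7 of 21 licensing genes (33.3%) and 4 of 28 fork genes (14.3%), against 0.929% of all genes. Only 1 of these 7 and 2 of these 4 genes were called. The motif is shown in capitals for Rfc3, a clamp loader subunit that was called, and for the helicase subunit Mcm6, which was not, in windows of 30 bases on the minus strand.
Rfc3, chr5:151651209-151651238: ccggaagtgacgtcgcacgcTTTCGCGCtc
Mcm6, chr1:128359734-128359763: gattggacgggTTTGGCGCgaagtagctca

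Mitotic genes showed the highest median of the proliferation lists, 1.68, with 15 of 40 called higher and none lower. Ccnb1, which encodes cyclin B1, was at 2.68, 7.03 and 9.25 TPM in the controls and at 91.1, 55.8 and 23.3 TPM in DKO BMT (2.90 ± 0.59 SE, limma adjusted p = 0.00264). The kinase gene Aurka (2.67), the anaphase activator Cdc20 (2.83) and the centromeric histone Cenpa (2.40) also rose. DKO BMT 3 was the lowest of the DKO BMT libraries in these genes, and without it 31 of 40 were called. Without control BM 1 the count was 6, without DKO BMT 1 it was 7, and without DKO BMT 2 or control BM 2 it was 9. Mki67, a general proliferation marker, was at 6.53, 5.69 and 5.395 TPM in the controls and at 21.2, 22.1 and 1.55 TPM in DKO BMT, so DKO BMT 3 lay below the controls. In set 1, 4 of the 40 were called higher (median 1.30). Of 23 G1 regulators, 3 were called lower and 1, Cdk4, higher (median 0.19), against 7.79% and 4.22% of all genes. Those called lower were Cdkn1a, Rb1 (-1.29) and its relative Rbl2 (-1.34), the latter 2 being brakes on S phase entry. None of the 23 was called in set 1 (median 0.11).

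Of 55 DNA repair genes, 7 were called higher and 1 lower (median 0.71), against 4.22% and 7.79% of all genes. In set 1, 3 were called higher and 2 lower (median 0.38). The gene that fell was Mgmt, which encodes the enzyme that removes methyl groups from guanine. It was at 6.54, 21.7 and 24.5 TPM in the controls and at 0.730, 2.57 and 0.588 TPM in DKO BMT (-2.93 ± 0.42 SE, limma adjusted p = 6.77e-05). Mgmt was called lower in set 1 too, with 6.28 to 9.49 TPM in the controls and 1.78 to 2.81 TPM in DKO BMT (-1.49, adjusted p = 0.0181), and it was called in 16 of 16 settings (adjusted p of at most 0.0475), but not with the leukocyte level as a covariate within set 2 (-2.48, adjusted p = 0.194). Xrcc6, the Ku70 subunit of end joining, and Apex1, the main abasic site endonuclease, rose by 1.29 and 1.54, the former in both sets.

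**Figure D4:**
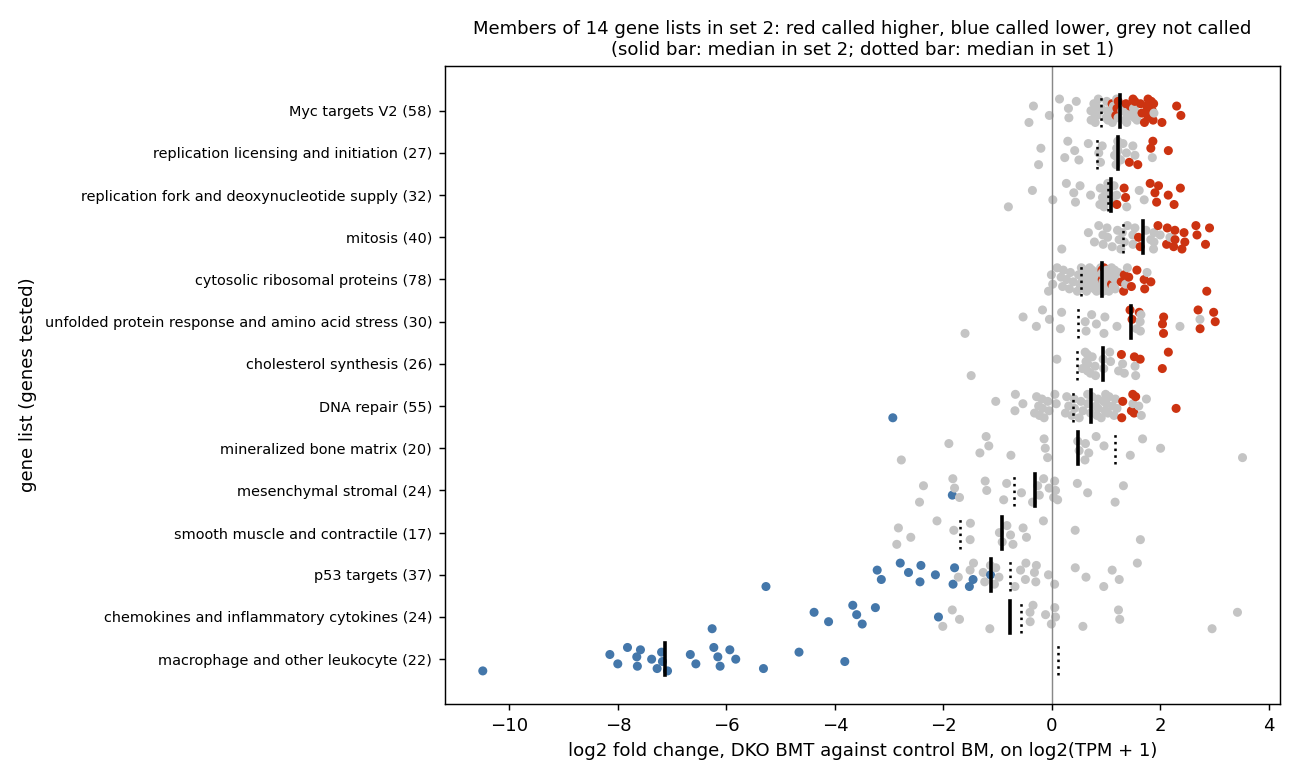
Log2 fold changes of DKO BMT against control BM in set 2 (horizontal axis) for the tested members of 14 gene lists (vertical axis, number tested in parentheses), with members called higher in red, called lower in blue and not called in grey; the solid bar is the median in set 2 and the dotted bar the median in set 1. The proliferation, ribosome and amino acid lists lie to the right in both sets, p53 targets to the left in both, and the leukocyte list lies at -7.13 in set 2 but at 0.11 in set 1.

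A minority of the genes of biosynthesis was called higher. Ran, a GTPase that drives transport through the nuclear pore, was at 68.4, 122 and 165 TPM in the controls and at 379, 315 and 392 TPM in DKO BMT (1.69 ± 0.34 SE, limma adjusted p = 0.00229), and it rose by 1.09 in set 1 (adjusted p = 0.0332). Its exchange factor Rcc1 was at 8.53, 11.8 and 12.6 TPM against 42.8, 40.4 and 22.2 TPM and was not called (adjusted p = 0.102). Of 30 genes of the unfolded protein response and amino acid stress, 10 were called higher and none lower (median 1.46). The called members were led by enzymes and a carrier of amino acid supply, Psat1 and Phgdh of serine synthesis and the transporter Slc7a5. Psat1 was at 17.0, 32.3 and 31.9 TPM in the controls and at 253, 99.5 and 402 TPM in DKO BMT (3.01 ± 0.49 SE, adjusted p = 0.000298), and it was called in set 1 (2.05, adjusted p = 0.0298). Shmt2 (2.73), Asns (2.06) and Atf4 (1.44), the last being the transcription factor of the amino acid response, were also called, while Ddit3 and Xbp1 of the unfolded protein response were not. The count of 10 fell to 3 without control BM 1 and to 3 without DKO BMT 3. Of 26 cholesterol synthesis genes 5 were called higher (median 0.95), among them Fdps at 73.6, 79.8 and 118 TPM against 327, 345 and 432 TPM (2.03 ± 0.37 SE, adjusted p = 0.000972). None of the 25 tested in set 1 was called there. Of 78 cytosolic ribosomal protein genes 14 were called higher and none lower (median 0.92), and this count was 3 without control BM 1 or DKO BMT 3, 6 without DKO BMT 1, 24 without control BM 3, 33 without DKO BMT 2 and 0 when just these 6 libraries were fitted. In set 1, 5 of the 78 were called higher (median 0.54), as were 4 of the 30 amino acid stress genes (median 0.48). Of the energy and polyamine lists, 3 of 37 nuclear genes of oxidative phosphorylation and 3 of 12 polyamine genes were higher, and 2 polyamine genes were lower. Slc16a1, the lactate carrier MCT1, rose by 2.44 and Aldoc, an aldolase, fell by 2.86 on the log2 scale among 24 glycolysis genes.

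Of 24 chemokines and inflammatory cytokines 8 were called lower and none higher in set 2 (median -0.77), and 1 was called lower in set 1 (median -0.57). Tnf was at 3.29, 14.96 and 18.8 TPM in the controls and at 0.0397, 0.500 and 0 TPM in DKO BMT, with a set 1 value of 1.61 (adjusted p = 0.509), and Cxcl14 was at 384, 618 and 679 TPM against 1.29, 109 and 0.413 TPM (-6.26, limma adjusted p = 0.0142). Cxcl10 and Ccl5 were higher in every DKO BMT library but were not called (adjusted p = 0.0748 and 0.188). The antigen presentation list held 3 called genes of 20, all lower. These were H2-Ab1 (-3.46), H2-Aa (-2.86) and Cd74 (-3.08), which serve MHC class II, although the list is named for class I. The list's median was -0.87 in set 2 and 0.58 in set 1, where none was called. H2-K1 of class I was at 799, 652 and 806 TPM in the controls and at 205, 255 and 90.7 TPM in DKO BMT (adjusted p = 0.107). Of 37 interferon response genes only Oasl1 (2.50) and Ifi204 (1.48) were called higher, a share near the 4.22% of all genes called higher. The list's median was 0.68 in set 2 (all genes 0.09) and 0.72 in set 1, where none was called. Igf1, a growth factor, was at 380, 286 and 276 TPM against 5.99, 94.7 and 0.545 TPM (-4.95 ± 0.98 SE, adjusted p = 0.00204) and was not called in set 1 (-0.83, adjusted p = 0.772), and Igf2 was called lower in both sets (-3.73 and -3.32). The Wnt antagonist Sfrp4, the activin subunit Inhbb and the BMP family member Gdf6 were the 3 of 28 BMP, activin and Wnt genes called. All 3 were lower, a share near the 7.79% of all genes called lower (median -0.81). In set 1, 2 of 27 were called higher and 3 lower (median -0.76).

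Matrix and contractile genes spread widely within DKO BMT and few were called. None of 40 matricellular, basement membrane and proteoglycan genes and none of 17 smooth muscle genes passed the limma test, whereas in set 1 5 were lower and 1 higher of the former and 6 lower of the latter. Mylk, the myosin light chain kinase, was at 20.99, 50.9 and 77.8 TPM in the controls and at 18.8, 221 and 5.77 TPM in DKO BMT (-0.53 ± 1.395 SE, adjusted p = 0.851). Nid2, a basement membrane nidogen, was at 4.11, 68.1 and 85.0 TPM against 45.0, 88.7 and 3.71 TPM (adjusted p = 0.933). In set 1 both were called lower, Mylk with 102 to 227 TPM in the controls against 21.4 to 40.6 TPM in DKO BMT and Nid2 with 55.3 to 125 TPM against 11.8 to 15.9 TPM, but the differences between the sets were not called (adjusted p = 0.678 and 0.46). Col7a1 rose (2.36) among 23 collagens, and the protease inhibitor Serpine2 fell (-4.71) among 24 proteases and inhibitors. In set 1, 2 members of each of these lists were called lower and none higher. Of 29 Hox genes only Hoxb9 was called, from 0.280 to 0.327 TPM in the controls against 29.8, 2.16 and 22.6 TPM in DKO BMT (3.34, adjusted p = 0.0371), although all DKO BMT libraries lay above all controls for 12 of the 29 (15.9% of all genes). The median of the 29 was 0.66 in set 2 and -0.29 in set 1, and the call of Hoxb9 held in 1 of 6 fits that left out a library (highest adjusted p = 0.156). Meis1 and Meis2, partners of Hox proteins, rose by 1.44 and 1.77, against -0.61 and -0.77 in set 1, where they were not called. The calls of Meis1 and Meis2 each held in 1 of 6 fits that left out a library (highest limma adjusted p = 0.119 and 0.126). Of 21 genes of the Hippo pathway, Ankrd1, Ajuba (2.26) and Tead4 (1.39) were called higher (median 0.36). The call of Ajuba held in 3 of 6 fits that left out a library and that of Tead4 in 0. In set 1 none of the 21 was called higher and 2 were called lower (median -0.70). Cebpa, Cd36 and Apoe were the 3 of 9 adipocyte genes called lower, of which Apoe and Cd36 are also made by macrophages, and Prg4 was the chondrocyte gene called lower. The calls of Serpine2 and Cebpa held in 2 and 1 of 6 fits that left out a library. No osteoclast gene of 6 was called in either set (median -0.97 in set 2 and 1.99 in set 1).

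The leukocyte promoters were searched for the PU.1 motif ACTTCCTC on both strands. It was found for 4 of 16 leukocyte genes with an entry (25%), against 3.69% of all genes. The windows are shown for C1qc and Pf4 as examples of markers that were called lower, with the motif in capitals as read on the gene's own strand, minus for C1qc and plus for Pf4.
C1qc, chr4:136893091-136893120: ggacggcagacACTTCCTCattttggcaca
Pf4, chr5:90772405-90772434: tgtcattgcttctgcagagcACTTCCTCat
C1qc was at 453, 514 and 565 TPM in the controls and at 0, 34.5 and 0 TPM in DKO BMT, and Pf4, platelet factor 4, was at 238, 219 and 500 TPM against 0.486, 1.23 and 0 TPM.

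The effect in set 2 was set against that in set 1, whose control and DKO BMT libraries are separate. Sex-linked transcripts moved in opposite directions in the sets. The median of Xist was 44.7 TPM in the controls and 0.0493 TPM in DKO BMT of set 1, against 0.00602 and 13.1 TPM in set 2. The part of sex in the differences between the sets was not tested. Of the 610 genes called higher, 592 were tested in set 1, 530 had the same direction there and 63 were called in both, which is 10.3% of the list of set 2 and 45.7% of the 138 genes called higher in set 1. Of the 1127 genes called lower, 1084 were tested in set 1, 643 had the same direction and 40 were called in both (3.55% and 19.9% of the lists), where set 1 had 201 genes called lower (1.4%). Of the genes called lower in set 2, 3 were called higher in set 1. Among the 134 named genes, 14 were called in both sets in the same direction, namely Mcm7, Rrp9, Ran, Nop56, Mrto4, Recql4, Xrcc6, Rpsa, Psat1 and Aldh1l2, which rose, and Ccng1, Btg2, Mgmt and Igf2, which fell. Of all 13585 genes tested in both sets 64.5% had the same direction, a share that the genes called lower in set 2 did not exceed. Over these genes the log2 fold changes had a Pearson r of 0.289 and a Spearman rho of 0.395, as a description across genes, which are not independent replicates.

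**Figure D5:**
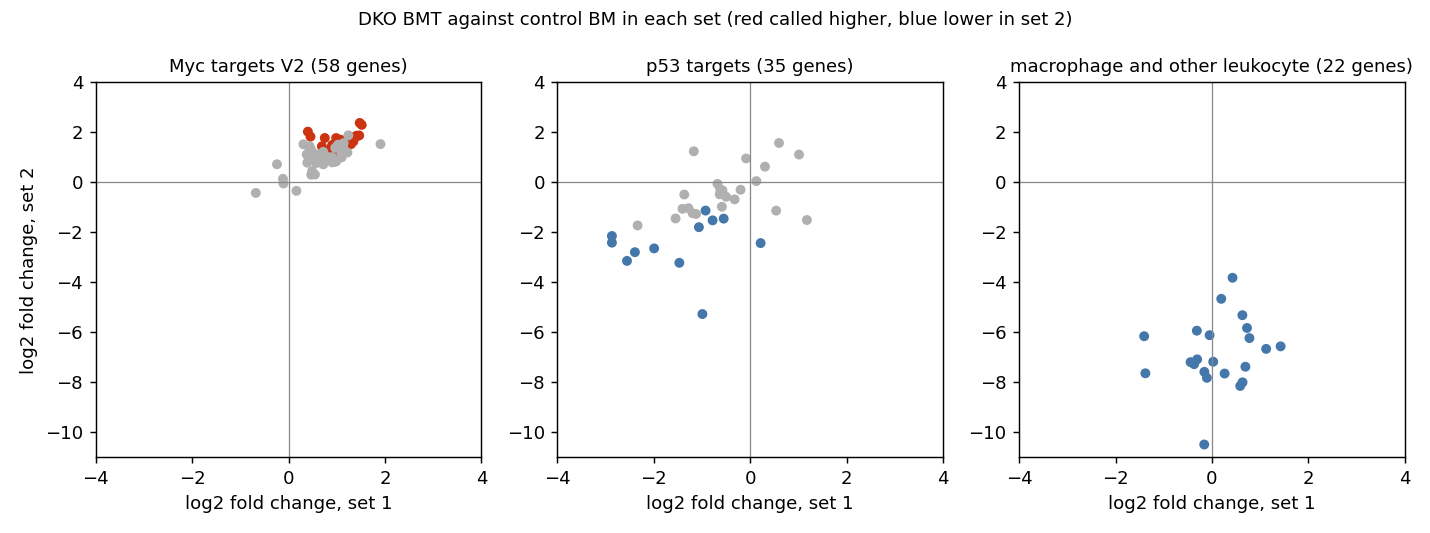
Log2 fold changes of DKO BMT against control BM in set 1 (horizontal axis) and set 2 (vertical axis) for 58 Myc targets V2, 35 p53 targets and 22 macrophage and other leukocyte markers, with genes called higher in set 2 in red, lower in blue and others in grey. The Myc targets lie mostly in the upper right, most p53 targets in the lower left, and the leukocyte markers spread around 0 in set 1 and lie at -3.82 (Cd14) or below in set 2.

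The difference of the effect between the sets was called for 580 of 15654 genes (3.71%), 55 of them with a higher (0.351%) and 525 with a lower (3.35%) fold change in set 2. Of the 22 leukocyte markers 19 were called in this test, and none of the 58 Myc targets V2 genes was. The genes of smallest p by the naming rule were Cx3cr1, Gpr84, Sirpb1b, Arhgap27 and Sirpb1a. Cx3cr1, the fractalkine receptor of monocytes and macrophages, was at 42.1, 34.0 and 30.1 TPM in the controls of set 2 and at 0.0161, 0.458 and 0 TPM in DKO BMT, against 0.329 to 5.67 TPM in the controls and 7.66 to 11.6 TPM in DKO BMT of set 1 (limma adjusted p = 3.19e-07 for the difference).

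DKO BMT was finally compared with BMT of mice with Trp53 deletion alone, which asks what loss of Wwox adds. No gene was called by limma (0 of 14458, 0%), and 378 had an unadjusted p under 0.05. Myc was at 37.5, 85.0 and 67.1 TPM in the libraries labelled SKO BMT 1, 2 and 3 (DKO BMT minus SKO BMT 0.28 ± 0.62 SE, adjusted p = 1), and Mcm7 was at 122, 51.5 and 78.0 TPM (0.09 ± 0.48 SE). Both therefore overlapped DKO BMT. Wwox was at 11.8 TPM in SKO BMT 1 but at 0.102 and 0.0857 TPM in the libraries labelled SKO BMT 2 and 3, as low as in DKO BMT. These libraries go against a label without Wwox deletion, and the comparison of genotypes rests on SKO BMT 1 as the only library with Wwox near or above the control level. Against DKO yBM 1 gene of 14458 was called (0.00692%), with 420 at an unadjusted p under 0.05. The gene was the model Gm25636, listed at 0 in DKO BMT and every other group of set 2 and at 9.13 to 10.6 TPM in DKO yBM (adjusted p = 1.18e-09). Myc was at 65.3, 51.5 and 67.0 TPM and Mcm7 at 101, 85.1 and 101 TPM in DKO yBM, which overlapped DKO BMT (differences of 0.26 ± 0.62 and -0.18 ± 0.48 SE).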

How the data were processed

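The authors trimmed reads with Trim Galore (0.6.1 in the submitters' processing notes, which also name the build mm39), checked them with FastQC, quantified them with salmon and deposited TPM per gene. Poly-A RNA had been turned into stranded libraries (KAPA) and read on a NextSeq 500. TPM sums to a fixed total, so a library rich in a few transcripts shows lower values for all others. From these values, limma 3.58.1 (R 4.3.3, trended prior, no covariates) was run on log2(TPM + 1) with all 21 libraries of set 2 in the same fit, and with all 37 libraries for the difference between sets, since a count test needs counts. Fold changes on this scale understate those of low genes. Among the named genes, Fcrls, Rpl3-ps1, Cx3cr1, Gpr84, Sirpb1a, Sirpb1b, H2-Aa, Tnf, Gdf6, Mmp8 and Ighm passed the filter of set 2 only through the 3 control libraries. Against these controls they could be called lower but not higher. Symbols were found for 48246 of 51123 gene IDs. Members and gene lists were chosen with earlier results of these data known. Named genes were 11 fixed genes, the 8 largest rises and falls among called genes without overlap and with a higher mean of at least 5 TPM (leaving out unnamed, mitochondrial and sex-linked genes), the 3 members of smallest p in each of 39 lists, and the up to 5 of smallest p in the other comparisons. Other genes were named from their list after their values were seen. The test was checked on simulated data. No 2 libraries of set 2 were copies (highest correlation 0.969).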

Additional observations from a re-analysis of the deposited data

Results flagged for a closer look

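The log2 fold change of DKO BMT against control BM differed between set 2 and set 1 by limma (adjusted p under 0.05 for the difference itself) for 23 of the named genes. It was higher in set 2 for Ankrd1 (difference 5.99), Ajuba (2.66) and Meis1 (2.05). It was lower in set 2 for genes of the leukocyte list or known from macrophages, namely Lyz2 (-10.3), Laptm5 (-8.74), Apoe (-8.64), Tyrobp (-8.64), C1qa (-7.72), Fcrls (-6.56), Wfdc17 (-6.26), Pf4 (-6.26), Cx3cr1 (-6.25), Aif1 (-6.07), Gpr84 (-5.70), Cxcl16 (-5.12), Tnf (-4.86), Mrc1 (-4.75), Arhgap27 (-3.87), Sirpb1b (-3.42) and Sirpb1a (-3.12), and for Rpl3-ps1 (-6.13), Aldoc (-4.72) and Rprm (-1.28). The leukocyte markers averaged 8.43 to 8.70 on the log2 scale in the controls of set 2 and 6.02 to 8.13 in those of set 1, and their part in these differences was not tested.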

How the results depend on the processing

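Against the 1737 genes called between DKO BMT and control BM, fitting only the compared groups gave 1013, median-ratio scaling 2686, quantile normalization 3130 and leaving out single libraries 938 to 2051. Alternatives added after seeing the data gave 216 calls with the leukocyte level as a covariate (153 shared), 65 with both sets in that fit (53 shared) and 1087 with DKO BMT 1 as the only DKO BMT library, whose lone sample is assumed to vary like the others. Against SKO BMT (0 called), 1 gene was called without the filter, with only the compared groups, with median-ratio scaling and with quantile normalization, and 0 to 8 without single libraries. Against DKO yBM (1 called), the counts were 2 without the filter, 5 with only the compared groups and 0 to 5 without single libraries. For the difference between sets (580 called), they were 344 with only the compared groups and 423 to 685 without single libraries. Replicate numbers did not pair the libraries (correlations 0.0369, 0.0451 and 0.0326 of deviations), and the replicate block gave 1612, 0, 1 and 557 calls. Named genes whose sign turned were Mylk (-1.95 to 0.57 without single libraries, highest without DKO BMT 3, 1.98 with the covariate and both sets), Nid2 (-1.52 to 1.04 without single libraries, with 0.36 without control BM 2, 0.52 without control BM 3, 1.04 without DKO BMT 3 and 1.24 with that covariate, 0.56 with DKO BMT 1 alone) and Acp5 (-2.37 to 0.046 without single libraries, highest without control BM 1). With that covariate the sign also turned for Lyz2 (1.72), Apoe (0.43), Tyrobp (0.78), C1qa (1.27), Col14a1 (0.22), Igf1 (0.33), Atp6v0d2 (1.83), Acp5 (0.94), Ctsk (2.33) and Cd36 (2.75). The covariate within set 2, which nearly coincides with the groups, left 32 of 134 named genes on their side of the threshold, lost 77, gained 2 and turned 23. The cause was not tested. Count tests planned with edgeR and DESeq2 were not run, since the file holds TPM, and sequencing depth is unknown.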
